A study of Mus musculus with 4 samples.

Results

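Chromatin remodellers are enzymes that use ATP to slide, evict or restructure nucleosomes. They are grouped by their ATPase: SWI/SNF (the BAF and PBAF complexes), ISWI, CHD and INO80. NuRD joins a CHD ATPase to the histone deacetylases Hdac1 and Hdac2, to an Mta scaffold and to a methyl-CpG-binding-domain protein. In embryonic stem cells a specialised BAF complex built on Smarca4 and Smarcc1 supports self-renewal, and NuRD with Mbd3 tunes the expression of pluripotency genes and the capacity to leave that state. The genes described here were chosen by name alone: every gene whose single symbol in the array annotation began with Smarc, Chd and a digit, Ino80, Arid1, Mta and a digit, Hdac or Sirt and a digit, together with 23 named subunit genes such as Pbrm1, Brd9, Mbd3, Rbbp4, Atrx, Bptf and Ep400. This gave 75 genes of the 18193 measured, read by 174 probe sets. Of these genes, 25 encode BAF or PBAF subunits, 14 NuRD subunits, 3 ISWI proteins, 7 other CHD proteins and 6 INO80 or EP400 proteins. Another 3 encode further SNF2-type ATPases, 9 further histone deacetylases and 7 sirtuins. The remaining one, Ino80dos, is an antisense transcript of Ino80d and no subunit.

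The cells were E14, a mouse embryonic stem cell line, grown with LIF at 1000 units per ml and with 15% serum, LIF being the cytokine that keeps such cells undifferentiated. Both groups were selected with puromycin for 3 days. The Npac RNAi cells had received a short hairpin RNA against Npac by lipid transfection 24 hours before selection began, and the control cells are labelled control RNAi, whose hairpin the labels do not describe. Npac is the older symbol of Glyr1, a nucleosome-binding protein that recognises a histone mark of transcribed gene bodies. Each group had 2 Affymetrix arrays, and the question was which transcripts differed when Npac was depleted. Nothing in the labels says that replicates came from separate cultures, so p-values measure only the spread between these arrays, which may be technical.

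Levels are RMA values on a log2 scale, so a difference of 1 is a 2-fold change. A gene was called when limma's adjusted p was under 0.05. Glyr1 stood at 11.30 and 11.32 on the control arrays and at 10.23 and 10.20 on the Npac arrays, which left 46.9% of the control level. Replicate arrays correlated at 0.998 in both groups. The cells carried stem cell markers in both groups, with a mean log2 level over 13 genes of 12.33 on each control array and of 11.90 and 11.93 on the Npac arrays. Of these markers 10 were called lower and 0 higher. Of 12 trophoblast markers 9 were called higher and 0 lower, with mean levels of 8.05 and 8.01 in control and 9.36 and 9.38 in Npac RNAi. Of the trophoblast markers 2 lay below the 25th percentile of all genes (5.51) in both groups. The 12 fibroblast markers, which would show feeder cells, had mean levels of 6.50 and 6.46 in control and 6.53 and 6.49 in Npac RNAi, with 2 called higher and 2 lower, and 6 of them below that percentile in both groups. The part that this shift from stem cell to trophoblast markers has in the values below was not tested. In such bulk samples fewer cells of a type and less RNA per cell cannot be told apart.

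Of the 75 remodeller and NuRD genes 37 were called (49.3%, against 40.8% of all genes). Among them 26 were called higher in Npac RNAi (34.7%, against 22.1% of all genes) and 11 were called lower (14.7%, against 18.7% of all genes). The changes were small. The median log2 difference was 0.07 over the 75 genes and -0.04 over all genes. The range ran from -0.66 for Sirt1 to 1.02 for Mta3, and 8 of the 75 were called with at least a 1.5-fold change, against 10.1% of all genes. The 75 genes are also brighter than most: 61 lay at or above the median level of all genes (7.49). When the genes at or above that level were fitted alone, 27 of the 61 were called higher (44.3%, against 42.1% of all such genes) and 11 lower (18.0%, against 26.5%). At a like signal level the share of genes called higher was thus near the background. In 63 of 75 genes the groups did not overlap, against 74.2% of all genes. Both Npac arrays lay above both control arrays in 39 genes and below both in 24. Of all 18193 genes 6211 lay above and 7290 below, a background not matched for level.

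**Figure D1:**
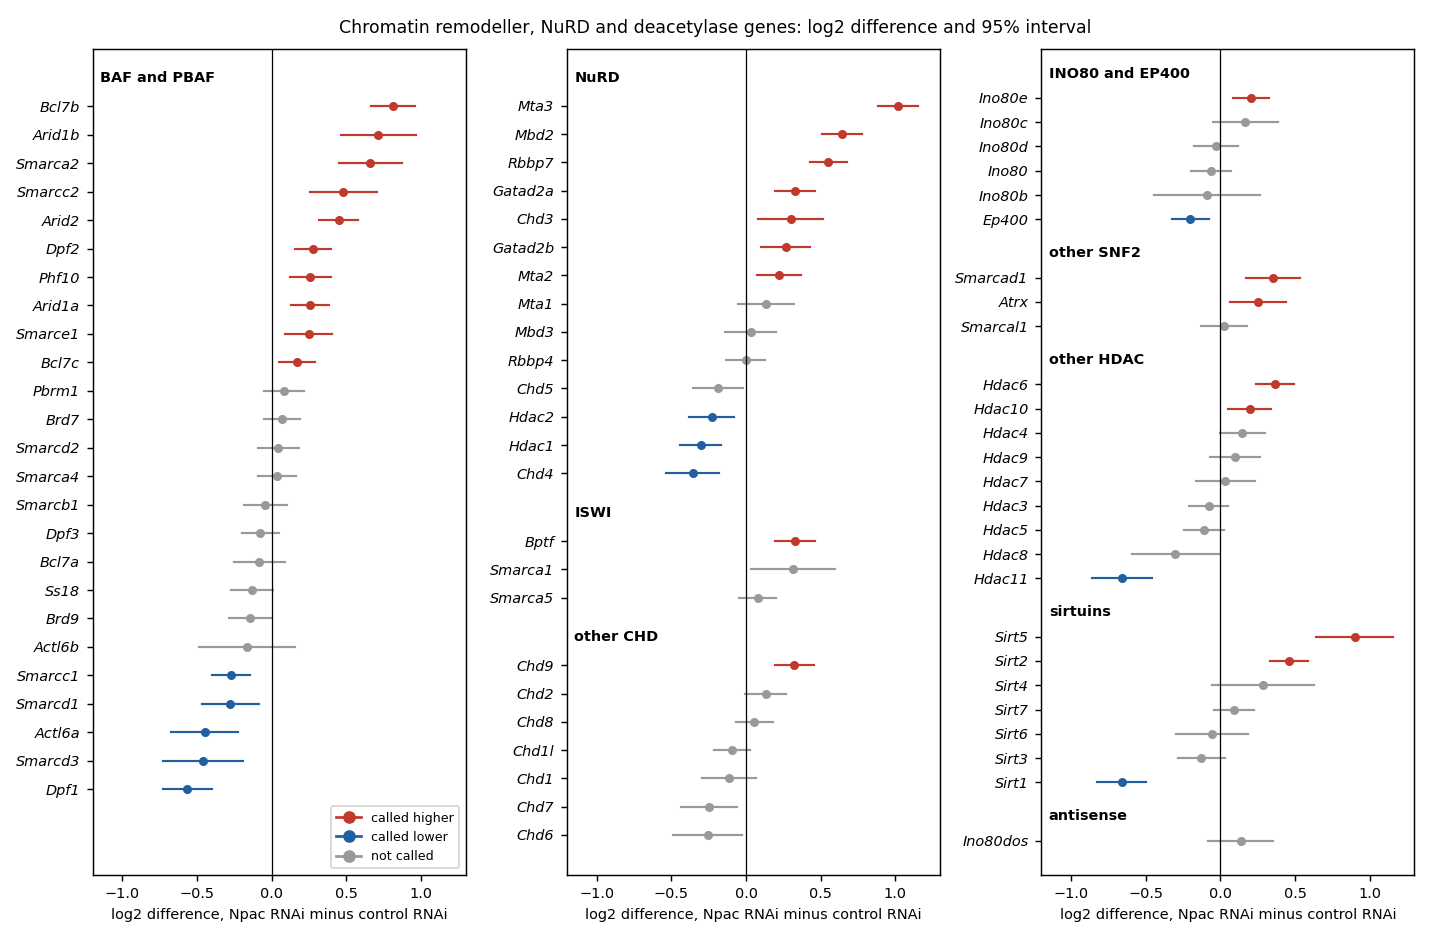
Log2 difference between Npac RNAi and control RNAi (x axis) for each of the 75 genes (y axis), grouped by complex, with limma's 95% confidence interval as a line. Red points were called higher, blue points lower and grey points not called; Mta3 lies farthest right at 1.02, and Sirt1 and Hdac11 farthest left at -0.66.

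The direction of the smaller differences depended on the scaling of the arrays. The split was 26 higher and 11 lower as deposited, 20 and 15 after cyclic loess, 18 and 22 after quantile normalization, and 15 and 26 after median centring of every array, which put the median difference over all genes at -0.18. Of all genes 22.1% were higher and 18.7% lower as deposited, 21.0% and 17.3% after cyclic loess, 17.9% and 22.6% after quantile normalization, and 15.6% and 39.4% after centring. The RNA spikes added as controls were on average 0.54 brighter on the Npac arrays, in 24 of 24 probe sets, and scaling on them left 3 of the 75 genes higher and 59 lower, beside 4.98% of all genes higher and 81.9% lower. The genes still higher under this scaling were Mta3 (0.48), Sirt5 (0.36) and Bcl7b (0.27). Directions below are therefore relative to the bulk of transcripts on the arrays. Leaving out 1 array left 1 array in a group and lowered the residual degrees of freedom. Fewer of the 75 genes were then called, and the share of all genes called in those fits is not given here. The loss of calls therefore cannot be read as particular to these genes. Calls that held without each of the 4 arrays in turn were those of 9 higher genes, Mta3, Mbd2, Rbbp7, Bcl7b, Arid1b, Smarca2, Arid2, Sirt5 and Sirt2, and of 3 lower genes, Sirt1, Hdac11 and Dpf1. Of the other 25 calls, 14 were lost without any 1 array, those of Arid1a, Atrx, Bcl7c, Dpf2, Ep400, Gatad2b, Hdac10, Hdac2, Ino80e, Mta2, Phf10, Smarcc1, Smarcd1 and Smarce1. The last 11 were lost without some array, and of these Chd9 and Smarcad1 kept theirs without control array 1 alone.

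**Figure D2:**
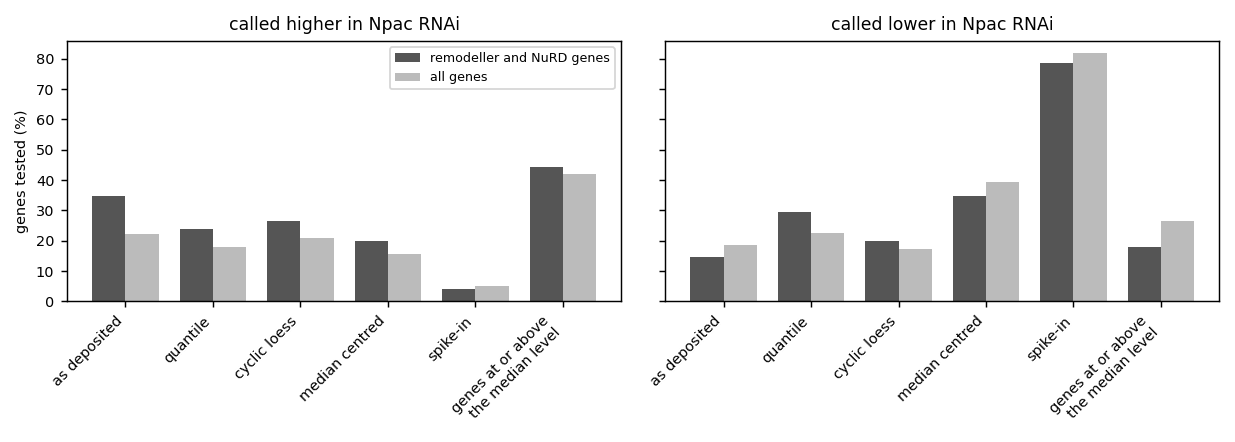
Share of genes tested (y axis, %) called higher (left) or lower (right) in Npac RNAi, for the 75 remodeller and NuRD genes (dark bars) and all genes (light bars), by scaling and for genes at or above the median level fitted alone. In the left panel the dark and light bars stand at 34.7% and 22.1% as deposited and at 4% and 4.98% with spike-in scaling. In the right panel they do not always move together. From as deposited to cyclic loess the dark bar rises from 14.7% to 20% and the light bar falls from 18.7% to 17.3%. With quantile normalization they stand at 29.3% and 22.6%.

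NuRD had the member with the largest rise, and its subunits did not move as one. Of 14 NuRD genes 7 rose and 3 fell as deposited (50% and 21.4%, against 22.1% and 18.7% of all genes), and 4 and 3 after cyclic loess or quantile normalization. Centring gave 4 and 4 (28.6% lower, against 39.4% of all genes), and spike-in scaling 1 and 10 (71.4% lower, against 81.9%). With genes dimmer than the median (7.49) left out of the fit, 7 of 13 NuRD genes rose and 3 fell. These are 53.8% and 23.1%, against 42.1% and 26.5% of all genes so fitted. The share of NuRD genes called higher was thus closer to the background than as deposited. The Mta proteins are the scaffold that binds the deacetylases, and Mta3 is the family member first described as a repressor of Snai1 in epithelial cells. Mta3 stood at 10.34 and 10.38 in control and 11.41 and 11.36 in Npac RNAi, which is 2.02-fold higher (1.02 in log2, SE 0.0495, limma adjusted p = 0.00128). Both Npac arrays lay above both control arrays by far more than the replicates differed. A second Mta3 probe set rose by 1.94 (SE 0.111), from 7.65 and 7.36 to 9.44 and 9.46, while the dimmest one read -0.18 (SE 0.106) with no call. Mta1, at 9.18 and 9.07 in control and 9.21 and 9.32 in Npac RNAi, was not called (0.13, SE 0.0685). Mta2 rose by 0.22 (SE 0.0548), a call lost without any 1 array and under spike-in scaling turned to -0.32.

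The methyl-CpG-binding-domain proteins Mbd2 and Mbd3 occur in separate NuRD complexes, of which Mbd2 binds methylated DNA and Mbd3 is the form needed for stem cell differentiation. Mbd2 stood at 9.29 and 9.24 in control and 9.88 and 9.93 in Npac RNAi, a rise of 0.64 (SE 0.0504, limma adjusted p = 0.00288), or 1.56-fold, and its second probe set rose by 0.69 (SE 0.104). Mbd3 was at 9.49 and 9.59 in control and 9.53 and 9.62 in Npac RNAi. The Mbd3 groups overlapped and the difference was 0.03, with a 95% interval from -0.14 to 0.20, which does not reach the interval of Mbd2 (0.51 to 0.78). The difference between the pair was not tested. Under spike-in scaling Mbd2 was 0.10 with no call and Mbd3 -0.51.

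Rbbp4 and Rbbp7 are close paralogues, histone-binding WD40 proteins shared by NuRD, Sin3 and Polycomb complexes. Rbbp7 stood at 13.37 on both control arrays and at 13.93 and 13.91 on the Npac arrays, a rise of 0.55 (SE 0.0458, limma adjusted p = 0.00324). Its second probe set rose by 0.32 (SE 0.0593), and spike-in scaling brought the first to 0.01. The brightest probe set of Rbbp4 read 13.59 and 13.63 in control and 13.59 and 13.62 in Npac RNAi, with overlapping groups and an interval from -0.13 to 0.13. The other 3 Rbbp4 probe sets were all called lower when every probe set was tested, at -0.26 (SE 0.0553), -0.38 (SE 0.0752) and -0.24 (SE 0.0594). The average of all 4 was called lower (-0.22). A statement on Rbbp4 therefore depends on the probe set.

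Of the NuRD ATPase and deacetylase genes Chd4, Hdac1 and Hdac2 fell, Chd3 rose and Chd5 was not called. Chd4, the main NuRD ATPase of stem cells, stood at 10.71 and 10.83 in control and 10.45 and 10.38 in Npac RNAi, a fall of 0.36 on the log2 scale (-0.36, SE 0.066, limma adjusted p = 0.0184). Its other probe sets read -0.75 (SE 0.0801, called) and -0.05 (SE 0.0591, not called). Chd3, its paralogue, rose by 0.30 (SE 0.0806), from 7.55 and 7.53 to 7.74 and 7.93, and turned to -0.24 under spike-in scaling. Hdac1 fell from 11.76 and 11.74 to 11.48 and 11.41 (-0.30, SE 0.0508, limma adjusted p = 0.0146). Hdac2 fell from 12.57 and 12.50 to 12.27 and 12.34 (-0.23, SE 0.0567, limma adjusted p = 0.0369). For both deacetylase genes, the catalytic subunits of NuRD, Sin3 and CoREST, each Npac array lay below each control array. The zinc finger subunits that bridge the parts of NuRD, Gatad2a (0.33, SE 0.0505) and Gatad2b (0.27, SE 0.0605), rose on the brightest probe set, but averaged over their 5 probe sets each they read 0.09 and 0.02, and under spike-in scaling -0.21 and -0.27. The neuronal ATPase gene Chd5 was not called (-0.19, SE 0.0626). The Chd4 call held only without control array 1 (adjusted p = 0.0436; up to 0.0866 otherwise), that of Chd3 only without Npac array 1 (0.0367; up to 0.169), that of Hdac1 only without Npac array 1 (0.0458; up to 0.0767) and that of Gatad2a only without control array 1 (0.047; up to 0.0661), while those of Hdac2 and Gatad2b were lost without any 1 array (up to 0.135 and 0.131). A second Hdac2 probe set was called lower in the test of all probe sets (-0.32, SE 0.0553). In that test the brightest was not called, nor was the dimmest (-0.07, SE 0.174). The average of the Hdac2 probe sets, -0.21, was not called.

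**Figure D3:**
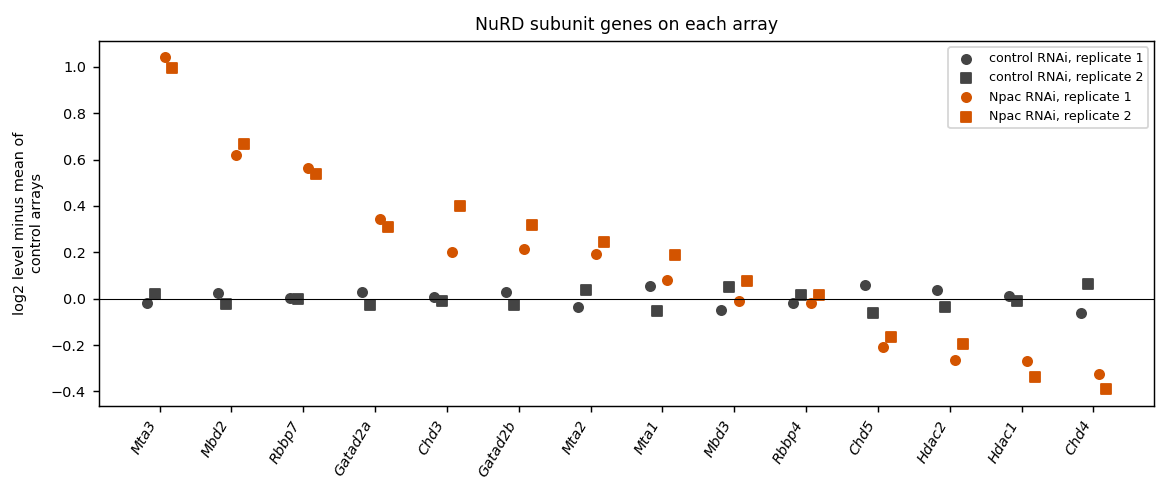
Level of each of the 14 NuRD genes on each array, as the log2 value minus the mean of the 2 control arrays (y axis), with control arrays in grey and Npac arrays in orange and replicate 1 as circles and replicate 2 as squares. The Npac arrays lie about 1 above control for Mta3 and below both control arrays for Chd5, Hdac2, Hdac1 and Chd4; for Mbd3 and Rbbp4 the groups overlap.

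BAF and PBAF subunits also moved in both directions. Of 25 genes 10 rose and 5 fell as deposited (40% and 20%, against 22.1% and 18.7% of all genes). The counts were 8 and 5 after cyclic loess, and 8 and 8 after quantile normalization (32% each, against 17.9% and 22.6%). Centring gave 5 and 10, and spike-in scaling 1 and 20. With genes dimmer than the median (7.49) left out of the fit, 9 of 20 BAF and PBAF genes rose and 4 fell. These are 45% and 20%, against 42.1% and 26.5% of all genes so fitted. At a like signal level the share of BAF and PBAF genes called higher was thus near the background. Smarca4 (Brg1) and Smarca2 (Brm) are the alternative ATPases. Smarca4 stood at 11.05 on both control arrays and at 11.11 and 11.06 on the Npac arrays, a difference of 0.04 with an interval from -0.09 to 0.16, and its second probe set read 0.03. Smarca2, which stem cells keep low, was at 6.53 and 6.45 in control and 7.07 and 7.23 in Npac RNAi (0.66, SE 0.0774, limma adjusted p = 0.00641). Its second probe set went the other way, from 6.24 and 6.07 to 5.85 and 5.87 (-0.29, SE 0.0793, not called), so the average over both was 0.18 (limma adjusted p = 0.094).

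Smarcc1 (BAF155) and Smarcc2 (BAF170) are the paired scaffold subunits, of which Smarcc1 is the one typical of stem cells. Smarcc1 fell from 11.61 and 11.63 to 11.36 and 11.33 (-0.27, SE 0.0463, limma adjusted p = 0.015). Of its other 3 probe sets one fell further, by 0.67 on the log2 scale (-0.67, SE 0.0551), and the others read -0.15 and 0.04 with no call. Smarcc2 rose from 7.71 and 7.60 to 8.05 and 8.22 (0.48, SE 0.082, limma adjusted p = 0.0152). The intervals, -0.40 to -0.15 for Smarcc1 and 0.26 to 0.70 for Smarcc2, do not meet, but the difference between the pair was not tested, and spike-in scaling gave -0.81 and -0.059. The Smarcc1 call was lost without any 1 array (adjusted p up to 0.0817), and that of Smarcc2 was kept only without Npac array 1 (0.0295; up to 0.0835). Because this pair differed in sign, their promoters are shown, each 300 bases of the RefSeq build GRCm38.p6 around the gene start, Smarcc1 at chr9:110131774-110132073 and Smarcc2 at chr10:128458986-128459285, both on the plus strand. Capitals mark matches on either strand to a GC box spelled GGGCGG, to the CCAAT box, to an ETS factor motif spelled CCGGAAG, to E2F motifs spelled TTTCCCGC or TTTGGCGC, and to the NRF1 and YY1 motifs.
Smarcc1: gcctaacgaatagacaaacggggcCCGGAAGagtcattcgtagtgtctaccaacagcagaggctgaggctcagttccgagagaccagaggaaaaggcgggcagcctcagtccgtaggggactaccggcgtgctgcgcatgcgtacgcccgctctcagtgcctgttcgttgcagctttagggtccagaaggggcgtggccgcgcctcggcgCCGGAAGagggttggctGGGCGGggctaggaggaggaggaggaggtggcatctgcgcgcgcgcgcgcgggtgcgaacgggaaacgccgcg
Smarcc2: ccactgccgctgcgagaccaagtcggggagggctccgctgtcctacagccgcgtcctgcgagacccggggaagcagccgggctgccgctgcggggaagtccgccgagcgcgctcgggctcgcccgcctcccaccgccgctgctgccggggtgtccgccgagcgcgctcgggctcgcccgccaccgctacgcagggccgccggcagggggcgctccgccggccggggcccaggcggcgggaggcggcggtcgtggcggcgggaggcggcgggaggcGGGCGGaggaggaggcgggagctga
Both windows hold 1 GC box and are rich in CpG, with 33 CpG in Smarcc1 and 48 in Smarcc2, and Smarcc1 has 2 ETS matches where Smarcc2 has 0. A promoter window was found for 60 of the 75 genes (76 windows), and their median CpG count was 24, against 7 over all 32851 windows. Those windows cover 27025 genes, more than the 18193 measured, and were not matched for level. The contrasts with them therefore cannot be read as particular to the 75 genes. A GC box was found in 77.6% of them and in 35.7% of all windows, a CCAAT match in 36.8% and 37.4%, and an ETS match in 14.5% and 8.86%. Matches to E2F (5.26%, against 1.56% of all), NRF1 (1.32%, against 0.971%) and YY1 (2.63%, against 0.633%) were rare. The median CpG count was 22.5 in the 26 windows of 20 genes called higher and 33 in the 11 windows of 10 genes called lower. It was 23 in the 39 windows of 30 genes not called. These counts describe letters and no binding, and GC boxes may overlap each other and follow CpG content.

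Arid1a, Arid1b and Arid2 are the large DNA-binding subunits that set the BAF (Arid1) or PBAF (Arid2) form. All of them were called higher, and under spike-in scaling Arid1a (-0.29) and Arid2 (-0.090) were below 0. Arid1b rose most, from 8.81 and 8.59 to 9.38 and 9.46 (0.72, SE 0.0922, limma adjusted p = 0.00784). Arid2 rose by 0.45 (SE 0.0479), and 2 of its other probe sets rose by 0.54 and 0.51, while its dimmest read -0.27 with no call and the average was 0.31. Arid1a rose from 11.62 and 11.60 to 11.85 and 11.88 (0.25, SE 0.047, limma adjusted p = 0.0185), and its second probe set by 0.26. The groups of each gene did not overlap. The Arid1a call was lost without any 1 array (adjusted p up to 0.095).

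Of the small subunits, Bcl7b rose most among the BAF genes, from 7.46 and 7.37 to 8.25 and 8.21 (0.81, SE 0.0544, limma adjusted p = 0.0021). Bcl7c rose by 0.17 (SE 0.0452; -0.37 with spike-in scaling) and Bcl7a was not called (-0.08). The Bcl7c call was lost without any 1 array, and another probe set of Bcl7a was called lower (-0.34, SE 0.0712). The double PHD finger subunits are exchanged as cells leave the stem cell state, with Phf10 and Dpf2 in proliferating cells and Dpf1 and Dpf3 in neurons or muscle. Dpf1 fell from 7.45 and 7.34 to 6.86 and 6.80 (-0.57, SE 0.0608, limma adjusted p = 0.00525). Dpf2 rose by 0.28 (SE 0.0454) and Phf10 by 0.26 (SE 0.0498), and both turned under spike-in scaling (-0.26 and -0.28). A second Phf10 probe set rose by 0.66 (SE 0.0549). Dpf3 was not called on its brightest probe set (-0.08), and its other one was called higher (0.39, SE 0.076).

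Actl6a (BAF53a), the actin-related subunit of dividing cells, fell from 11.58 and 11.43 to 10.99 and 11.13 (-0.45, SE 0.0824, limma adjusted p = 0.0182). Its second probe set fell too (-0.35, SE 0.0606) and the remaining one read 0.01, so that the average was -0.26. Its neuronal counterpart Actl6b was dim, with overlapping groups (-0.16, SE 0.119). Among the BAF60 subunits, which link the complex to transcription factors, Smarcd3 fell from 6.26 and 6.35 to 5.72 and 5.96 (-0.46, SE 0.0995, limma adjusted p = 0.0267), and Smarcd1 from 7.30 and 7.43 to 7.14 and 7.04 (-0.28, SE 0.0716, limma adjusted p = 0.0421). Smarcd2 was not called (0.04). The groups of Actl6a, Smarcd3 and Smarcd1 did not overlap, yet the calls held only without Npac array 2 for Actl6a (adjusted p = 0.0481; up to 0.0724) and Smarcd3 (0.0303; up to 0.128), and not without any array, nor for the average of its probe sets, for Smarcd1 (up to 0.161). Smarce1, the HMG-box subunit, rose by 0.25 (SE 0.0584), but was -0.29 with spike-in scaling and 0.15 with no call as the average of its probe sets. The core subunit Smarcb1 (-0.04), Ss18 (-0.13), Brd7 (0.07), Brd9 (-0.15) and Pbrm1 (0.08) were not called, although both other probe sets of Pbrm1 were called higher (0.45 and 0.40; average 0.31, called). Another probe set of Ss18 was called lower (-0.30, SE 0.0565), as was the average of its probe sets (-0.23), and another of Smarcd2 was called lower (-0.32, SE 0.0621).

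**Figure D4:**
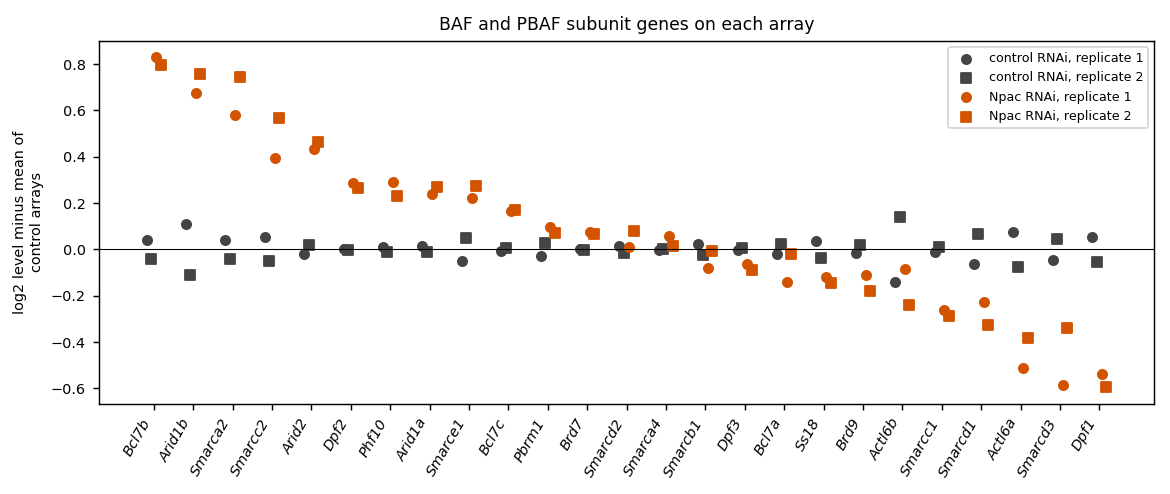
Level of each of the 25 BAF and PBAF genes on each array, as the log2 value minus the mean of the 2 control arrays (y axis), drawn as for the NuRD genes. The Npac arrays of Bcl7b, Arid1b and Smarca2 lie between 0.5 and 1 above the control mean, those of Smarca4 within 0.1 of it, and those of Dpf1 below -0.5.

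Of 3 ISWI genes 1 was called, and of the 7 CHD genes outside NuRD 1 (14.3%, against 40.8% of all genes). Smarca5 (Snf2h), the ISWI ATPase of stem cells, stood at 13.03 and 13.01 in control and 13.10 on both Npac arrays, with no call (0.08, SE 0.0458). One of its other probe sets was called lower (-0.56, SE 0.0669) and the others read -0.05 and 0.06. Smarca1, its paralogue, was not called (0.31, SE 0.104). Bptf, the large subunit of the NURF complex that reads methylated H3K4, rose by 0.33 on its brightest probe set (SE 0.0494, limma adjusted p = 0.0113), from 11.86 and 11.81 to 12.15 and 12.18. Its 4 probe sets split, with 2 called higher (0.33 and 0.27) and 2 called lower (-0.21 and -0.27), and their average was 0.03. With spike-in scaling Bptf was -0.21. The Bptf call was also lost without control array 2 (adjusted p = 0.0641) and without Npac array 2 (0.065).

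Chd1, which reads methylated H3K4 and helps keep stem cell chromatin open, stood at 9.72 and 9.58 in control and 9.51 and 9.56 in Npac RNAi, with no call (-0.11, SE 0.0661). Its other 3 probe sets read 0.15, 0.10 and 0.10, also with no call. Chd9 was the CHD gene outside NuRD called as deposited (0.32, SE 0.0481), and it was -0.22 with spike-in scaling and 0.20 with no call as the average of its probe sets. The others were Chd2 (0.13), Chd8 (0.05), Chd1l (-0.09), Chd7 (-0.25, limma adjusted p = 0.0522) and Chd6 (-0.26). The lower calls in this group numbered 0 as deposited, 3 after cyclic loess, 4 after quantile normalization or centring and 7 with spike-in scaling, in settings where 17.3%, 22.6%, 39.4% and 81.9% of all genes were lower.

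INO80 and EP400 remodel nucleosomes that carry the variant H2A.Z. The ATPase gene Ino80 stood at 9.13 and 9.14 in control and 9.04 and 9.10 in Npac RNAi (-0.06, SE 0.0496, not called), and its second probe set was called lower (-0.29, SE 0.0655). Ep400 fell from 10.79 on both control arrays to 10.58 and 10.59 (-0.20, SE 0.0452, limma adjusted p = 0.0294), a call lost without any 1 array (up to 0.115). All 7 Ep400 probe sets read below 0. In the test of all probe sets 4 of these were called lower, the farthest at -0.94 (SE 0.0804), from 8.19 and 8.30 to 7.23 and 7.37, and the brightest was not (adjusted p = 0.056). The average over the Ep400 probe sets was -0.38. Of the INO80 accessory genes Ino80e rose by 0.21 (SE 0.0453; -0.33 with spike-in scaling), and Ino80b (-0.09), Ino80c (0.17) and Ino80d (-0.03) were not called. One of the other probe sets of Ino80d was called lower (-0.48, SE 0.0576), as was the average of its probe sets (-0.21). The antisense transcript Ino80dos was dim and not called (0.14, SE 0.0796).

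Atrx deposits histone H3.3 at heterochromatin and telomeres together with Daxx. Its brightest probe set rose from 11.93 and 11.79 to 12.09 and 12.14 (0.25, SE 0.0695, limma adjusted p = 0.0489), a call lost without any 1 array (up to 0.177) and -0.29 with spike-in scaling. Of its 7 probe sets 3 were called lower in the test of all probe sets (-0.24, -0.28 and -0.42), and the average was -0.062. No direction for Atrx can be drawn from these values. Smarcad1, an ATPase active at replicating heterochromatin, rose by 0.35 (SE 0.0675; -0.19 with spike-in scaling), and Smarcal1, which restarts stalled forks, was not called (0.03), although another of its probe sets was called higher (0.30, SE 0.068).

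**Figure D5:**
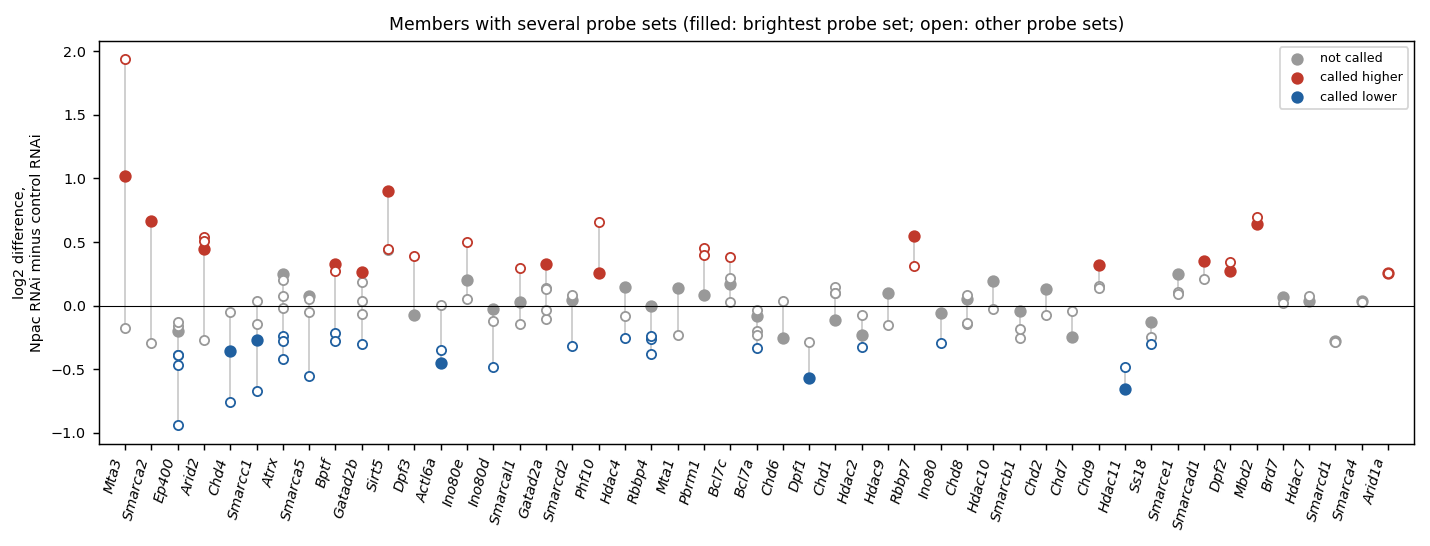
Log2 difference between Npac RNAi and control RNAi (y axis) for every probe set of the 49 genes with several (x axis, ordered by the spread between probe sets), with calls from a fit of all probe sets; filled points are the brightest probe set of a gene. Mta3 spans -0.18 to 1.94, Ep400 lies wholly below 0, and Bptf and Gatad2b have calls in both directions.

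Over all 49 genes with several probe sets, 2, Bptf and Gatad2b, had probe sets called in opposite directions in the fit of all probe sets, which is 4.08% of them, against 2.7% of all genes with several. Of the 174 probe sets 68 were called in the fit of all probe sets, in which 28.2% of all probe sets were called, and 35 were called higher (20.1%, against 14.2% of all probe sets) and 33 lower (19.0%, against 14%). The excess of higher over lower calls seen for the brightest probe sets was thus not seen over all probe sets. In that fit the brightest probe sets of Atrx, Bcl7c, Chd3, Ep400, Hdac10, Hdac2, Ino80e, Mta2, Smarcd1 and Smarce1 lost their calls. Their limma adjusted p ran from 0.0521 for Smarce1 to 0.0839 for Bcl7c. Where the probe sets lie along each transcript was not analysed here.

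The deacetylases outside NuRD gave 2 higher and 1 lower call of 9 (22.2% and 11.1%, near the 22.1% and 18.7% of all genes), and 2 and 2 after cyclic loess, and 1 and 3 after quantile normalization. Centring gave 1 and 4, and spike-in scaling 0 and 8. Hdac11, the only class IV enzyme and a fatty acylase, fell from 6.59 and 6.74 to 6.04 and 5.97 (-0.66, SE 0.0739, limma adjusted p = 0.00586), and its second probe set fell by 0.48 on the log2 scale (-0.48, SE 0.103). Hdac6, the cytoplasmic tubulin deacetylase, rose from 10.47 and 10.44 to 10.84 and 10.80 (0.37, SE 0.0473, limma adjusted p = 0.00778), but was -0.17 with spike-in scaling and lost its call without control array 2 (adjusted p = 0.0536). Hdac10, a polyamine deacetylase, rose by 0.20 (SE 0.0534; -0.34 with spike-in scaling, and 0.086 with no call as the average of its probe sets). Hdac3, the catalytic subunit of the NCoR complex, was not called (-0.08, SE 0.0492). The class IIa genes Hdac4 (0.15), Hdac5 (-0.11), Hdac7 (0.03) and Hdac9 (0.10), and the X-linked class I gene Hdac8 (-0.30, SE 0.108), were not called either, although another probe set of Hdac4 was called lower (-0.25, SE 0.0549). The 2 control arrays gave Hdac4 the same value, and its SE leans on limma's prior.

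Sirtuins are NAD-dependent deacylases, of which Sirt1, Sirt6 and Sirt7 are nuclear, Sirt2 is largely cytoplasmic and Sirt3, Sirt4 and Sirt5 are mitochondrial. Of the 7 genes 2 rose and 1 fell as deposited (28.6% and 14.3%, against 22.1% and 18.7% of all genes), 2 and 2 after quantile normalization or centring, and 1 and 4 with spike-in scaling. Sirt1, which deacetylates p53 and histones and is abundant in embryonic stem cells, fell from 10.81 and 10.84 to 10.10 and 10.22 (-0.66, SE 0.0611, limma adjusted p = 0.00395), leaving 63.2% of the control level. Sirt5, the desuccinylase of mitochondria, rose from 7.53 and 7.33 to 8.26 and 8.40 (0.90, SE 0.096, limma adjusted p = 0.00521). Its 2 dimmer probe sets read 0.44 each, of which 1 was called, and the average over all 3 was 0.59. Sirt2 rose from 8.81 and 8.77 to 9.27 and 9.24 (0.46, SE 0.0477), and was -0.080 with spike-in scaling. Sirt3 (-0.13), Sirt4 (0.29), Sirt6 (-0.06) and Sirt7 (0.09) were not called. The promoters of the sirtuin genes with the farthest differences are shown in the same way, Sirt1 at chr10:63338986-63339285 on the minus strand and Sirt5 at chr13:43365285-43365584 on the plus strand, with the same motifs in capitals.
Sirt1: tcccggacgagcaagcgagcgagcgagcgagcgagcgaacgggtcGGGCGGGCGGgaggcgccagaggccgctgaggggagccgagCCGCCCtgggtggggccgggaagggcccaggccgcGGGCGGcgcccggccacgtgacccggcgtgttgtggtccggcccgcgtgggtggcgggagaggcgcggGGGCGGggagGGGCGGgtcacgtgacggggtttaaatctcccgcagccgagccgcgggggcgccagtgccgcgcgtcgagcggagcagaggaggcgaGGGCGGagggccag
Sirt5: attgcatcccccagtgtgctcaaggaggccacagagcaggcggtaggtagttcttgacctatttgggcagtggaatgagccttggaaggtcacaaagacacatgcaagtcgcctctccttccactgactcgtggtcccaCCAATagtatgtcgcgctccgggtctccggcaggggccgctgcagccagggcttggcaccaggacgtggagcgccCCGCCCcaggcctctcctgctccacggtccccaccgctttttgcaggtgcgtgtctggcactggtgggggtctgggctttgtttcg
The Sirt1 window holds 47 CpG and 7 GC boxes, some of them overlapping, and no CCAAT. The Sirt5 window holds 15 CpG, 1 GC box and 1 CCAAT match.

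Of the 12 paralogue pairs set side by side, 2 had one gene called higher and the other called lower, Smarcc2 against Smarcc1 and Chd3 against Chd4. The Chd3 call was lost in the fit of all probe sets (limma adjusted p = 0.0608). In 3 further pairs one gene rose and the interval of the other held 0 and did not reach it, Smarca2 with Smarca4, Mbd2 with Mbd3 and Rbbp7 with Rbbp4. The sizes of these gaps, from 0.55 for the Rbbp pair to 0.75 for the Smarcc pair, cannot change with a constant shift of an array, as in median centring and spike-in scaling. They depend on the probe set. Averaged over probe sets, Smarca2 read 0.18 with no call and Smarca4 0.03, while Rbbp7 read 0.43 and Rbbp4 -0.22. The averages were 0.67 and 0.03 for Mbd2 and Mbd3, 0.48 and -0.26 for Smarcc2 and Smarcc1, and 0.30 and -0.39 for Chd3 and Chd4. Mbd3, Smarcc2 and Chd3 have 1 probe set each, so averaging could not change their values. Both genes of a pair were called the same way for Arid1a and Arid1b, Hdac1 and Hdac2, Gatad2a and Gatad2b, and Smarcd1 and Smarcd3. Averaged over probe sets, Gatad2a, Gatad2b, Hdac2 and Smarcd1 were not called. None of these gaps was tested, and the pairs were chosen with earlier results of these data known.

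Partner genes, subunits and cofactors of the same complexes outside the name rule, gave 19 higher and 19 lower of 76 measured (25% each, against 22.1% and 18.7% of all genes), with a median log2 difference of -0.01. Centring gave 11 and 34, and spike-in scaling 3 and 64. At or above the median level lay 74 partner genes, of which 23 rose and 21 fell in the fit of such genes alone. These are 31.1% and 28.4%, against 42.1% and 26.5% of all such genes, so the share called higher was below that background. With 1 array left out fewer partner genes were called, and the share of all genes called in those fits is not given here either. Shares of all genes for the lists that follow are 22.1% higher and 18.7% lower as deposited, 15.6% and 39.4% once centred, and 4.98% and 81.9% under spike-in scaling. Among 10 BAF and NuRD partners 4 rose and 1 fell as deposited (3 and 3 after centring, 1 and 6 with spike-in scaling). Zmynd8, a chromatin reader that recruits NuRD, rose from 10.44 and 10.28 to 11.92 and 11.90 (1.55, SE 0.0696, limma adjusted p = 0.00113), or 2.93-fold. On brightest probe sets this was more than any of the 75 genes, but another probe set of Mta3 rose by 1.94. The average over probe sets was 0.95 for Zmynd8 and 0.93 for Mta3. The NuRD-recruiting zinc finger gene Sall1 rose by 0.65 (SE 0.061) and Zfp219 fell by 0.23 on the log2 scale (-0.23, SE 0.0541).

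Of 22 corepressor genes that work with Hdac1, Hdac2 or Hdac3, 8 rose and 5 fell as deposited (4 and 9 after centring, 1 and 18 with spike-in scaling). Mideas, the scaffold of the mitotic deacetylase complex, rose from 9.25 and 9.11 to 10.27 and 10.26 (1.09, SE 0.0655), but by 0.24 when its probe sets were averaged. Tbl1x, an NCoR subunit, rose by 0.68 (SE 0.048), or by 0.31 as the average of its probe sets. Rcor2, the CoREST scaffold of stem cells, fell from 9.33 and 9.39 to 8.49 and 8.45 (-0.89, SE 0.0501, limma adjusted p = 0.00161). Ing1, a Sin3 subunit that reads methylated H3K4, fell by 0.44 on the log2 scale (-0.44, SE 0.0486).

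Among 9 ISWI partners 2 rose and 1 fell as deposited (2 and 2 after centring, 0 and 7 with spike-in scaling). These were Hmgxb4 (0.59, SE 0.0462; average over probe sets 0.11), Baz2b (0.51, SE 0.0529; average 0.19, and -0.031 with spike-in scaling) and, lower, the remodelling factor gene Rsf1 (-0.44, SE 0.0453; average -0.13). Of 25 genes of the INO80, SRCAP and TIP60 complexes 3 rose and 5 fell (1 and 13 after centring, 0 and 24 with spike-in scaling), led by Epc2 (0.38, SE 0.0614; -0.16 with spike-in scaling) and Znhit1 (0.25, SE 0.0468; -0.29 with it) upward and Nfrkb (-0.40, SE 0.0484) and Mrgbp (-0.31, SE 0.0453; average over probe sets -0.14) downward. The averages over probe sets of Hmgxb4, Baz2b, Rsf1 and Mrgbp, and that of Btaf1 below, were not called. Of 10 other SNF2-type genes and their partners 2 rose and 7 fell (70% lower, against 18.7% of all genes). Centring gave 1 and 7 (against 39.4% lower), and spike-in scaling 1 and 9 (against 81.9% lower). Daxx, the H3.3 chaperone that works with Atrx, rose from 9.80 and 9.84 to 10.61 and 10.62 (0.80, SE 0.0469, limma adjusted p = 0.00171), and the TATA-binding protein remover Btaf1 rose by 0.24 (SE 0.0466; average over probe sets 0.15, and -0.30 with spike-in scaling). Rad54l, the ATPase of homologous recombination, fell from 10.39 and 10.40 to 9.71 and 9.73 (-0.67, SE 0.0452), and Hells, which supports DNA methylation at repeats, fell from 12.65 and 12.62 to 12.19 and 12.15 (-0.46, SE 0.0469; average over probe sets -0.71). Of the partner genes named, the calls of Zfp219 (adjusted p up to 0.133), Znhit1 (up to 0.0962), Btaf1 (up to 0.0868) and Mrgbp (up to 0.0621) were lost without any 1 array, and that of Epc2 (up to 0.0647) was kept without 1 of the 4.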

How the data were processed

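RNA of 4 mouse E14 samples, 2 control RNAi and 2 Npac RNAi by their titles, was measured on 1-colour Affymetrix arrays from 5 µg of total RNA. The authors deposited 1 log2 value for each probe set and array, made with RMA per the submitters' processing notes, which give no version. The log base was inferred from the values, and RMA equalises arrays, so a change shared by most transcripts would not be seen. The number of arrays limits the precision.

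Of 45101 probe sets, 64 controls were kept out, 34945 had 1 gene symbol, 932 several and 9160 none. Symbols were updated by Entrez identifier against RefSeq genes of GRCm38.p6 (34741 matched). A gene's value is that of its brightest probe set (mean of the 4 arrays), without a filter on dim genes. The groups were tested by lmFit and eBayes of limma 3.58.1 under R 4.3.3 (group as the only term, 2 residual and 2.28 prior degrees of freedom), with Benjamini-Hochberg adjustment over 18193 genes. Intervals are limma's at 95%, and SE is its moderated standard error. The fit was also run on simulated arrays with known changes, in far fewer genes than were called here and with noise drawn from limma's fitted prior. That run was required only to recover the sizes of the changes, so it cannot vouch for the calls.

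Per-array values were given for the 8 most raised and 8 most lowered called members and for a set of core subunits, and named partners were up to 2 called genes per list and direction with the smallest adjusted p. Which of these and of the other members have values per array was chosen after they were seen. The members, lists and alternatives were chosen with earlier results of these data known. The crossed block and the fit of all probe sets were added after the data were seen.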

Additional observations from a re-analysis of the deposited data

How the results depend on the processing

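The difference of Glyr1 kept its direction and its call in every alternative run, between -1.63 with spike-in scaling and -1.08 without Npac array 2. The counts of the 75 genes stayed within 1.5 times of 26 higher and 11 lower with a trend or robust prior, cyclic loess, a crossed replicate block, the filters on dim genes and the mean of probe sets. They were 12 and 2 without moderation (16% and 2.67%, against 8.56% and 5.46% of all genes), and 10 and 3 at an adjusted p under 0.01. With at least 1.5-fold they were 6 and 2, where 10.1% of all genes were called in either direction. Shares of all genes are not given here for the stricter threshold, the blocks and the largest interquartile range. Those counts therefore cannot show whether a change was particular to these genes. Of the 37 calls, 14 were kept without moderation. Centring gave 15 and 26, quantile normalization 22 lower, spike-in scaling 3 and 59, and the probe set with the largest interquartile range 21 lower. Deviations of same-numbered arrays from their group means correlated at -0.17 across genes, so the numbers were not taken as pairs. With the replicate number as a block they were 13 and 6, and for the partner genes 12 and 10; crossing the numbers gave 22 and 10 and, for the partners, 18 and 17. Partner genes, 19 and 19 as deposited, were 11 and 11 without moderation (14.5% each, against 8.56% and 5.46% of all genes). They were 10 and 7 at an adjusted p under 0.01, 6 and 2 with at least 1.5-fold, 11 and 34 when centred and 3 and 64 under spike-in scaling. Leaving out 1 array gave fewer calls for the 75 genes and for the partners, in fits whose share of all genes called is not given here. Spike-in scaling, which adds a constant to every gene, turned the sign of these genes called in at least 1 of both settings: Arid1a -0.29, Arid2 -0.090, Atrx -0.29, Baz2b -0.031, Bcl7c -0.37, Bptf -0.21, Brd7 -0.47, Btaf1 -0.30, Chd2 -0.41, Chd3 -0.24, Chd8 -0.49, Chd9 -0.22, Dpf2 -0.26, Epc2 -0.16, Gatad2a -0.21, Gatad2b -0.27, Hdac10 -0.34, Hdac4 -0.39, Hdac6 -0.17, Hdac7 -0.51, Hdac9 -0.44, Ino80c -0.37, Ino80dos -0.40, Ino80e -0.33, Mbd3 -0.51, Mta1 -0.40, Mta2 -0.32, Pbrm1 -0.46, Phf10 -0.28, Sirt2 -0.080, Sirt7 -0.45, Smarca4 -0.50, Smarca5 -0.46, Smarcad1 -0.19, Smarcal1 -0.51, Smarcc2 -0.059, Smarcd2 -0.50, Smarce1 -0.29, Znhit1 -0.29. Smarca1 (-0.23) and Sirt4 (-0.25) turned with no call in either. Among called genes, quantile normalization turned Bcl7c (-0.0030), the mean of probe sets Atrx (-0.062), and the probe set with the largest interquartile range turned Atrx (-0.42), Dpf3 (0.39), Gatad2b (-0.30), Hdac4 (-0.25), Smarca5 (-0.56) and Smarcd2 (-0.32). Genes called in neither setting turned too: 11 after quantile normalization, 5 after cyclic loess, 14 after centring, 8 for the mean of probe sets (Chd1, Chd8, Dpf3, Hdac4, Hdac9, Mta1, Smarca5 and Smarcd2) 5 for the largest interquartile range and 1 to 4 when 1 array was left out. The causes were not tested.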

Other observations

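Of the 75 genes 5 lie on the X chromosome, of which 3 were called higher and 0 lower, against 158 higher and 110 lower of 617 X-linked genes measured. The median genomic span of the 75 genes was 34.6 kb, against 20.3 kb over the 18029 genes with a span in RefSeq. Spans had a median of 39.4 kb for the members called higher, 26.5 kb for those called lower and 46.7 kb for those not called. Across the 75 genes the log2 difference and the span had a Spearman's rho of 0.11, and 0.12 across all genes, and rho with the level on the array was 0.10 and 0.23. These are descriptions across genes of the same 4 arrays, which are not independent replicates.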
